A study of Saccharomyces cerevisiae with 8 samples.

Results

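Translation factors are the proteins that bring messenger RNA, initiator tRNA and ribosomes together, carry the ribosome along the message and release the finished chain. Transcripts of 37 such genes of Saccharomyces cerevisiae, budding yeast, were looked up by symbol on the expression array, and the brightest probe set stood for a gene. Of these, 34 had a probe set, among 5449 genes tested in all: 24 act in initiation, 8 in elongation and 2 in termination. TEF1, EFT1 and TIF1 had no probe set under their own symbol and were left out. Their partners TEF2, EFT2 and TIF2 encode the same protein from a nearly identical reading frame, so the values given under those 3 names cannot be assigned to 1 copy. All 34 were above background on all 8 arrays, background being the 95th percentile of the probe sets for another yeast species on the same array (4.27 to 4.40, log2 intensity). Each value below is a log2 intensity made by the authors, so a difference of 1 is 2-fold.

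The arrays compare evolved strain 1, evolved strain 2 and evolved strain 3, with 2 arrays each, with the arrays labelled Parental BY4742, also 2. The evolved strains are isolates taken after about 450 generations in high glucose, and nothing says whether they share a culture. A single growth protocol covers all 8 samples: complete medium with 2% glucose and 0.5% ammonium sulfate at 30 °C, in 100 ml cultures of which 10 µl was moved to fresh medium daily. The replicates are called biological, with no word on separate cultures, so p-values measure the spread between these arrays.

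BY4742 is a haploid laboratory strain of mating type alpha that lacks LYS2, and neither the arrays labelled parental nor the evolved arrays fitted that description throughout. LYS2 stood at 11.31 to 11.59 on the evolved arrays and at 9.09 and 9.04 on the arrays labelled parental, above background on all 8 arrays. MET17, which BY4742 carries, was above background on 2 of the 8 arrays. URA3 was above background on 0 of the 8, and LEU2 and HIS3 on all 8. LEU2 was not far above it, at 5.04 to 5.61 on the evolved arrays and 5.39 and 5.27 on the arrays labelled parental. HIS3 stood at 12.82 to 12.94 on the evolved arrays and at 11.38 and 11.41 on the arrays labelled parental. The a-factor gene MFA2, which alpha cells keep off, stood at 6.79 to 7.14 on the evolved arrays and at 12.61 and 12.53 on the arrays labelled parental. The other a-factor gene, MFA1, stood at 10.25 to 10.76 on the evolved arrays and at 12.36 and 12.35 on the arrays labelled parental. For the mating-type genes STE2, STE3 and MF(ALPHA)1 the evolved ranges were 6.48 to 6.97, 7.39 to 7.77 and 5.23 to 5.77. The arrays labelled parental read 9.18 and 9.16 (STE2), 7.14 and 7.08 (STE3) and 4.35 and 3.81 (MF(ALPHA)1). Control transcripts also set those 2 arrays apart: the 4 Bacillus control transcripts differed by -3.03 to -2.57 (log2, evolved minus parental), and the hybridisation controls by -1.14 to -0.32. The 3′ to 5′ difference was larger in the evolved arrays for 2 of 7 yeast control transcripts and larger in the arrays labelled parental for 5 (median -0.26, from -0.72 to 0.74). For the 4 Bacillus transcripts it was larger in the evolved arrays, with a median of 0.75. The part of these differences in the results below was not tested, and both arrays labelled parental enter every comparison with an evolved strain.

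Initiation starts when eIF2, charged with GTP and initiator tRNA, joins eIF1, eIF1A, eIF3 and eIF5 on the small ribosomal subunit, while eIF4E, eIF4G and eIF4A prepare the capped end of the message. The exchange factor eIF2B recharges eIF2, and it is the step that the kinase Gcn2 slows when amino acids run short. In elongation eEF1A delivers aminoacyl-tRNA, eEF2 moves the ribosome by a codon, and fungi need a further ATPase, eEF3. In growing yeast eEF1A, eEF2 and eEF3 are among the most abundant proteins of the cell. Many translation factor genes are read in step with ribosomal protein genes.

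Most of the factors were higher in the evolved strains, and 10 were called lower, 9 of them initiation factors. In the contrast of the averaged evolved strains with parental, 23 of 34 rose, 10 fell and ANB1 was not called (adjusted p under 0.05 with limma). Over all genes tested, 43.3% were called higher and 43.4% lower, so a call by itself is common in this comparison. The median difference of the 34 was 0.42 (log2), beside -0.01 for all genes tested and 0.84 for 127 cytosolic ribosomal protein genes. By role the median was 0.31 for initiation, with 15 of 24 higher and 9 lower, and 0.44 for elongation, with 6 of 8 higher and 1 lower. Both termination factors rose. The arrays measure RNA per amount of total RNA, so differences are relative to other genes and give no amount per cell.

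Of the 34, 20 were called under all 15 alternative settings, which moved their differences by at most 0.11. All 20 rose or fell by 0.47 or more, a bound read off the outcome and not set beforehand. They were EFB1, TEF4, EFT2, YEF3, TIF2, TIF3, TIF4631, TIF4632, PAB1, SUI2, RPG1, NIP1, PRT1, TIF34, HCR1, SUP35 and SUP45, all higher, and TIF35, SUI1 and TIF11, all lower. One of the 15 settings took each strain as a random block, which allows for correlation between arrays of a strain (0.85 for all genes together). Its degrees of freedom still count arrays, not strains. The counts with this block were 17 higher and 3 lower, where 28.2% and 28.6% of all genes were called. These are the same 20 members, so the block adds no separate support. The share of all genes called under all 15 settings was not counted. The other 13 calls, all with differences of at most 0.37, were lost in that fit. Changes of at least 2-fold were seen in 6 members, all higher (10.9% of all genes rose and 9.95% fell by that much): YEF3, TIF4632, EFT2, TIF3, TEF4 and PRT1.

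**Figure D1:**
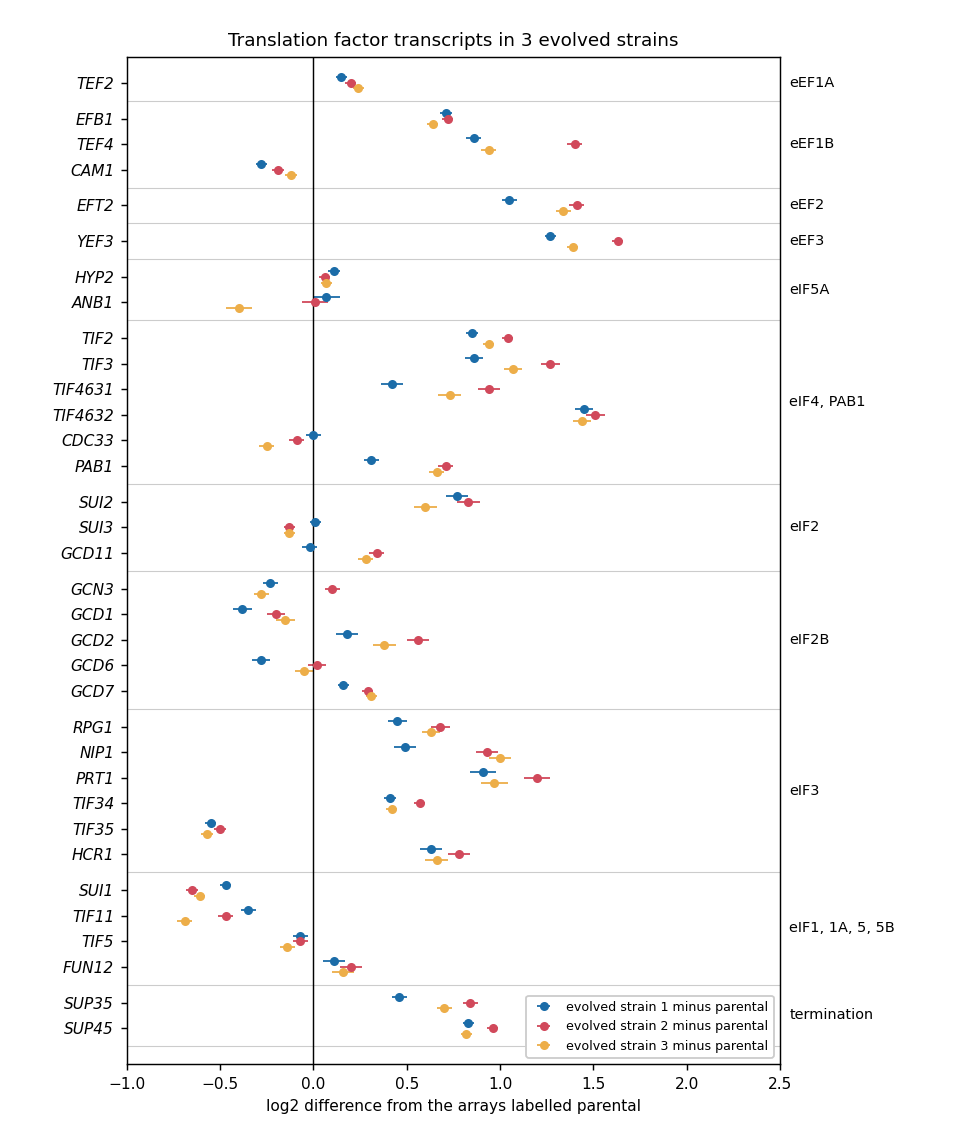
Log2 difference from the arrays labelled parental for 34 translation factor genes, grouped by factor; points are the 3 evolved strains (2 arrays against 2) and lines are standard errors. YEF3, EFT2 and TIF4632 lie above 1 in every strain, and TIF35, SUI1 and TIF11 lie below 0 in every strain.

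The elongation genes split between strong rises and near constancy. YEF3 encodes eEF3, the ATPase that helps release deacylated tRNA from the ribosome. Its array values were 12.58 and 12.55 (strain 1), 12.93 and 12.93 (strain 2) and 12.67 and 12.71 (strain 3), against 11.27 and 11.32 in the arrays labelled parental. Every evolved array stood more than 1 log2 unit above both of the others, and the mean difference was 1.43 ± 0.03 (log2, SE; 2.69-fold; adjusted p = 1.86e-08 with limma). EFT2, for eEF2, the translocase, read 12.62 and 12.62 (strain 1), 12.96 and 13.00 (strain 2) and 12.90 and 12.91 (strain 3), against 11.61 and 11.53 in the arrays labelled parental. The groups did not overlap, and EFT2 rose by 1.27 ± 0.03 (2.41-fold, adjusted p = 4.4e-08 with limma).

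eEF1A and its exchange factor eEF1B behaved unevenly from subunit to subunit. TEF2, for eEF1A, was the brightest of the members, 14th among all genes, with 14.13 and 14.15 (strain 1), 14.19 and 14.19 (strain 2) and 14.23 and 14.22 (strain 3), against 13.99 and 13.99 in the arrays labelled parental. These values are close to the top of the array range, where the highest probe set reached 14.83. Its rise was small, 0.20 ± 0.02, and its call was lost with strain as a random block (adjusted p = 0.0958). EFB1, the catalytic alpha subunit of eEF1B, had 13.15 to 13.25 on the evolved arrays and 12.54 and 12.52 on the arrays labelled parental, and rose by 0.69 ± 0.02 (1.61-fold).

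The gamma subunit of eEF1B is encoded by a pair of paralogues, TEF4 and CAM1, which went opposite ways in the fit. TEF4 read 10.27 and 10.32 (strain 1), 10.83 and 10.84 (strain 2) and 10.34 and 10.41 (strain 3), against 9.44 and 9.43 in the arrays labelled parental, a rise of 1.06 ± 0.03 (2.09-fold, adjusted p = 8.2e-08 with limma). CAM1 read 11.89 and 11.88 (strain 1), 11.98 and 11.97 (strain 2) and 12.04 and 12.04 (strain 3), against 12.16 and 12.17 in the arrays labelled parental. All 6 evolved CAM1 values lay below both of the others, by a small margin: the difference was -0.20 ± 0.02, and its call was lost with strain as a random block (adjusted p = 0.112). How the paralogues differ in response was not tested as such.

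eIF5A, which relieves stalling at proline-rich stretches and carries the modified residue hypusine, is encoded by HYP2 in air and by ANB1 under hypoxia. HYP2 read 13.09 and 13.13 (strain 1), 13.06 and 13.06 (strain 2) and 13.06 and 13.07 (strain 3), against 12.99 and 13.01 in the arrays labelled parental. Its difference of 0.08 ± 0.02 was called (adjusted p = 0.019 with limma), but the call was lost without parental replicate 1 (adjusted p = 0.0673), when arrays were centred on the median of tested genes (adjusted p = 0.509), under quantile normalization (adjusted p = 0.849) and with strain as a random block (adjusted p = 0.504). ANB1 read 8.09 and 8.21 (strain 1), 8.10 and 8.08 (strain 2) and 7.63 and 7.72 (strain 3), against 8.16 and 7.99 in the arrays labelled parental. Its mean difference of -0.11 was not called, with a 95% interval from -0.24 to 0.03. Strain 3 alone fell below the arrays labelled parental, by -0.40 ± 0.07 (adjusted p = 0.00118 with limma). In the mean contrast ANB1 was called without parental replicate 2 (adjusted p = 0.0136), under quantile normalization (adjusted p = 0.0457) and with arrays centred on the median (adjusted p = 0.0212).

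**Figure D2:**
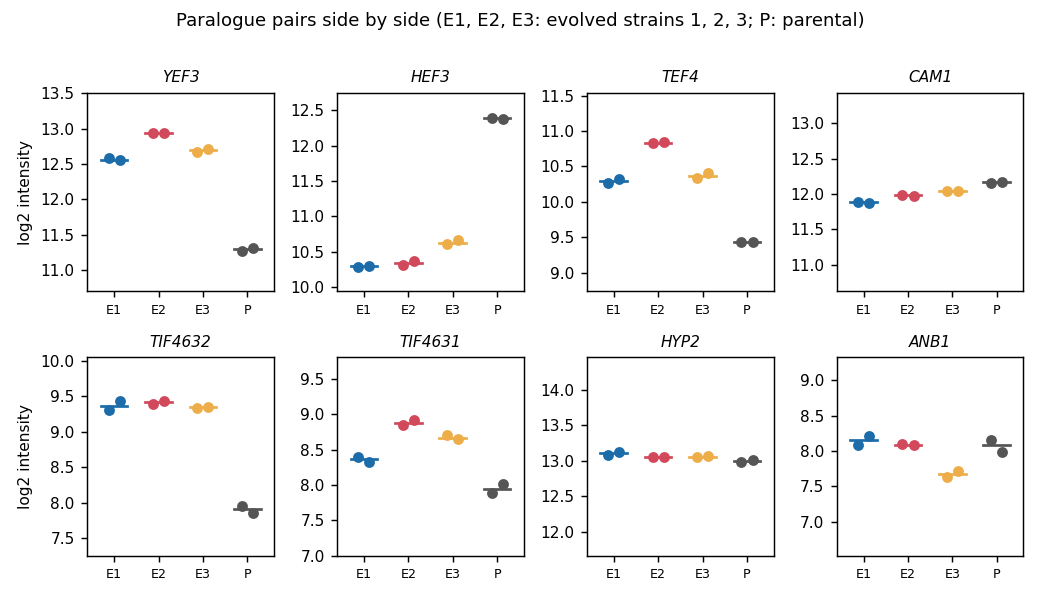
Log2 intensity on each array for 4 paralogue pairs, in evolved strains 1, 2 and 3 (E1, E2, E3) and in the arrays labelled parental (P); dots are arrays and lines are means of 2 arrays. YEF3 is higher and its paralogue HEF3 lower in the evolved strains, and ANB1 is lower in strain 3 than in the other evolved strains; every panel spans the same height on the log2 axis.

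HEF3, a paralogue of YEF3, is not among the 34 but bears on YEF3. It read 10.29 and 10.30 (strain 1), 10.32 and 10.37 (strain 2) and 10.61 and 10.66 (strain 3), against 12.39 and 12.38 in the arrays labelled parental. It fell by -1.96 ± 0.03 (3.89-fold, adjusted p = 7.48e-09 with limma), opposite in sign to YEF3 in all 3 strains. Its signal was above that of YEF3 on the arrays labelled parental (YEF3 at 11.27 and 11.32) and below it on every evolved array. Amounts of the YEF3 and HEF3 transcripts were not compared, since their probe sets differ. Whether probes of either gene also bind transcripts of the other was not tested.

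In the group that prepares the message, 5 of 6 genes rose (43.3% of all genes), with a median of 0.82. TIF4632 encodes one of the forms of eIF4G, the scaffold that joins the cap-binding protein to the helicase. It read 9.31 and 9.43 (strain 1), 9.40 and 9.44 (strain 2) and 9.34 and 9.35 (strain 3), against 7.96 and 7.86 in the arrays labelled parental. This was the largest difference of the 34 in the mean of the evolved strains, 1.47 ± 0.04 (2.76-fold, adjusted p = 1.04e-07 with limma), and it was nearly the same in each strain: 1.45 (strain 1), 1.51 (strain 2) and 1.44 (strain 3).

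The other eIF4G gene, TIF4631, rose less and varied more among strains. It read 8.40 and 8.32 (strain 1), 8.84 and 8.92 (strain 2) and 8.70 and 8.65 (strain 3), against 7.88 and 8.01 in the arrays labelled parental. The evolved values were all higher, the lowest of them those of strain 1, and the mean difference was 0.69 ± 0.05 (1.62-fold, adjusted p = 6.92e-06 with limma). Strain 1 differed from parental by 0.42 ± 0.06, strain 2 by 0.94 ± 0.06 and strain 3 by 0.73 ± 0.06.

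TIF2, for the DEAD-box helicase eIF4A, read 12.42 and 12.40 (strain 1), 12.61 and 12.61 (strain 2) and 12.51 and 12.49 (strain 3), against 11.54 and 11.60 in the arrays labelled parental. It rose 1.92-fold on average and reached 1.04 ± 0.03 (log2) in strain 2. TIF3, for eIF4B, which stimulates that helicase, read 10.05 and 10.10 (strain 1), 10.51 and 10.46 (strain 2) and 10.34 and 10.23 (strain 3), against 9.17 and 9.26 in the arrays labelled parental. It rose by 1.07 ± 0.04 (2.1-fold, adjusted p = 4.37e-07 with limma). PAB1, the poly(A)-binding protein that bridges the tail of the message to eIF4G, rose by 0.56 ± 0.03 (1.47-fold), with evolved arrays from 11.81 to 12.22 and the arrays labelled parental at 11.53 and 11.48.

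CDC33, for the cap-binding protein eIF4E, did not follow its partners. Its evolved arrays ran from 11.97 to 12.24 and overlapped the arrays labelled parental at 12.21 and 12.23. The mean difference of -0.11 ± 0.03 was called (adjusted p = 0.00905 with limma), and the call was lost with strain as a random block (adjusted p = 0.468). In strain 1 CDC33 differed from parental by 0.00 ± 0.04, and in strain 3 by -0.25 ± 0.04.

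**Figure D3:**
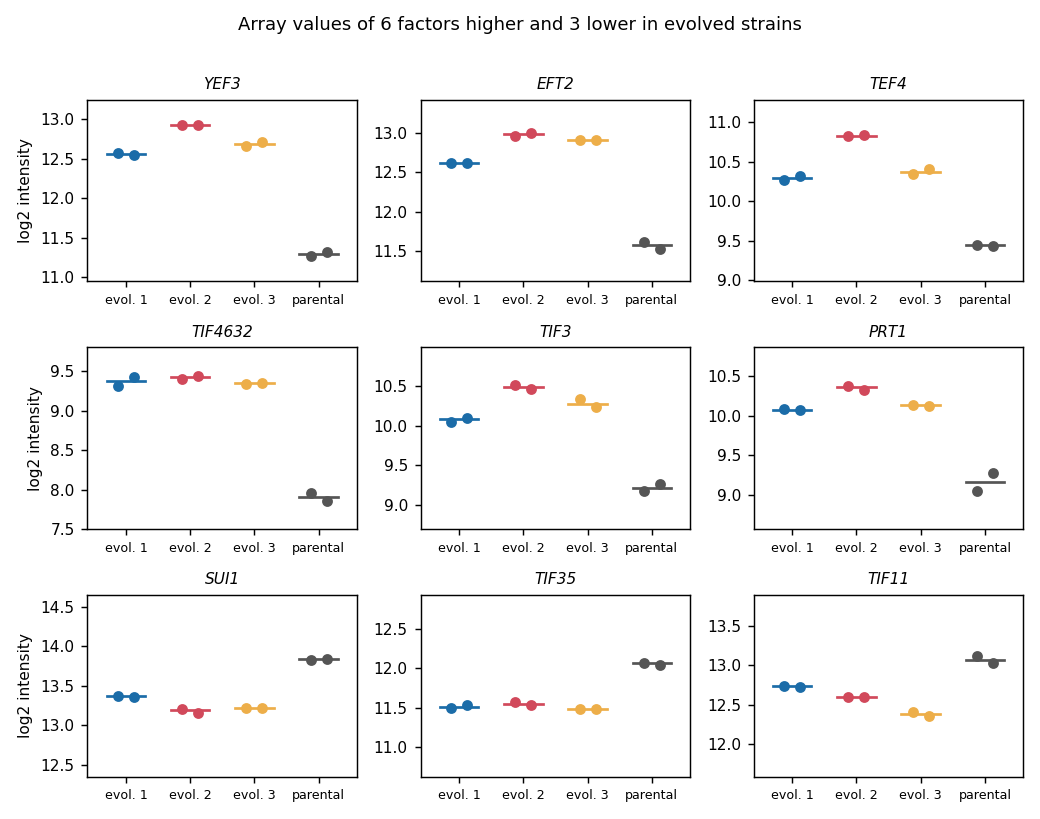
Log2 intensity on each array for the 6 members that rose at least 2-fold and for the 3 largest falls, by strain; dots are arrays, lines are means of 2 arrays, and each panel spans 2.3 log2 units. In none of the 9 panels, chosen by size of difference, do the evolved arrays overlap the arrays labelled parental. Over all genes tested, 38.2% had every evolved array above both arrays labelled parental and 38.9% had every one below.

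eIF3 is the large scaffold of the small-subunit complex. In every evolved strain 5 of its 6 measured genes rose while TIF35 fell. Over all genes tested, 35.2% were called higher and 36% lower in all 3 strains. PRT1, the b subunit, read 10.08 and 10.07 (strain 1), 10.38 and 10.33 (strain 2) and 10.13 and 10.12 (strain 3), against 9.05 and 9.27 in the arrays labelled parental. It rose by 1.03 ± 0.05 (2.04-fold, adjusted p = 1.89e-06 with limma). NIP1, the c subunit, read 9.00 and 9.01 (strain 1), 9.41 and 9.48 (strain 2) and 9.48 and 9.55 (strain 3), against 8.58 and 8.44 in the arrays labelled parental. Its rise of 0.81 ± 0.05 (1.75-fold) reached 1.00 ± 0.06 in strain 3, against 0.49 ± 0.06 in strain 1. RPG1, the a subunit, rose by 0.59 ± 0.04, HCR1, the loosely held j subunit, by 0.69 ± 0.05, and TIF34, the i subunit, by 0.47 ± 0.03.

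TIF35, the g subunit, which binds RNA and works beside TIF34, read 11.49 and 11.53 (strain 1), 11.57 and 11.54 (strain 2) and 11.48 and 11.48 (strain 3), against 12.07 and 12.04 in the arrays labelled parental. It fell by -0.54 ± 0.03 (1.46-fold, adjusted p = 9.95e-07 with limma). The fall was of similar size in the 3 strains (-0.55, -0.50 and -0.57 in order of strain number), and the test among evolved strains did not call it (adjusted p = 0.186), except under quantile normalization (adjusted p = 0.0473).

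The factors of scanning and subunit joining were the lowest group, with a median of -0.30 over 4 genes. SUI1 encodes eIF1, which guards the accuracy of start codon choice. It read 13.37 and 13.36 (strain 1), 13.21 and 13.16 (strain 2) and 13.22 and 13.22 (strain 3), against 13.83 and 13.84 in the arrays labelled parental. SUI1 fell by -0.58 ± 0.02 (1.49-fold, adjusted p = 5.88e-07 with limma), the largest fall of the 34. TIF11, for eIF1A, its partner in scanning, read 12.73 and 12.72 (strain 1), 12.60 and 12.60 (strain 2) and 12.41 and 12.35 (strain 3), against 13.12 and 13.02 in the arrays labelled parental. It fell by -0.50 ± 0.03 on average, and by -0.35, -0.47 and -0.69 in strains 1, 2 and 3 (each ± 0.04).

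The later-acting members of that group changed little. TIF5, for eIF5, which triggers GTP hydrolysis by eIF2, differed by -0.09 ± 0.03, and FUN12, for eIF5B, which joins the ribosomal subunits, by 0.16 ± 0.05. Both calls were lost with strain as a random block (adjusted p = 0.491 for TIF5 and 0.409 for FUN12). The TIF5 call was also lost without parental replicate 1 (adjusted p = 0.114), without evolved strain 2 replicate 1 (adjusted p = 0.0523) and without evolved strain 3 replicate 1 (adjusted p = 0.0501). The FUN12 call was lost without parental replicate 2 (adjusted p = 0.0854) and with arrays centred on the median of tested genes (adjusted p = 0.063).

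Of the 3 subunits of eIF2, SUI2 rose clearly. SUI2 encodes the alpha subunit, on which Gcn2 acts, and read 11.17 to 11.43 on the evolved arrays and 10.51 and 10.68 on the arrays labelled parental, a rise of 0.73 ± 0.05 (1.66-fold, adjusted p = 4.98e-06 with limma). GCD11, the GTP-binding gamma subunit, read 10.48 and 10.52 (strain 1), 10.83 and 10.90 (strain 2) and 10.82 and 10.80 (strain 3), against 10.55 and 10.50 in the arrays labelled parental. Strain 1 thus overlapped the arrays labelled parental (-0.02 ± 0.04), while strain 2 was higher by 0.34 ± 0.04 and strain 3 by 0.28 ± 0.04. SUI3, the beta subunit, differed by -0.08 ± 0.03, with overlapping arrays. Its call was lost without parental replicate 2 (adjusted p = 0.0548), under quantile normalization (adjusted p = 0.233) and with strain as a random block (adjusted p = 0.524), as was that of GCD11 in the strain fit (adjusted p = 0.286).

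No subunit gene of eIF2B moved far. In the mean of the evolved strains GCD2 (delta) differed by 0.37 ± 0.05 and GCD7 (beta) by 0.25 ± 0.03, both called higher. GCD1 (gamma) differed by -0.24 ± 0.04, GCN3 (alpha, needed for Gcn2 to act on the complex) by -0.14 ± 0.03 and GCD6 (epsilon, the catalytic subunit) by -0.10 ± 0.04, all called lower. With strain as a random block none of these 5 was called, at adjusted p-values of 0.0999 (GCD2), 0.0728 (GCD7), 0.173 (GCD1), 0.495 (GCN3) and 0.583 (GCD6). The GCD6 call was also lost without any of 6 single arrays, most clearly without parental replicate 2 (adjusted p = 0.189).

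Both release factor genes rose. SUP45 encodes eRF1, which reads stop codons, and read 11.53 and 11.54 (strain 1), 11.64 and 11.69 (strain 2) and 11.53 and 11.52 (strain 3), against 10.70 and 10.71 in the arrays labelled parental. It rose by 0.87 ± 0.02 (1.83-fold, adjusted p = 9.19e-08 with limma). SUP35, the GTPase eRF3, also known for its prion form, read 10.40 and 10.39 (strain 1), 10.78 and 10.79 (strain 2) and 10.66 and 10.63 (strain 3), against 9.89 and 10.00 in the arrays labelled parental. It rose by 0.67 ± 0.03 (1.59-fold, adjusted p = 1.46e-06 with limma), least in strain 1 (0.46 ± 0.04) and most in strain 2 (0.84 ± 0.04).

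By strain, 21 of 34 rose and 7 fell in strain 1 (40.6% and 43.9% of all genes), 22 and 7 in strain 2 (42.5% and 42.6%), and 22 and 10 in strain 3 (43% and 41.1%). The median difference was 0.25, 0.56 and 0.40 (log2) in strains 1, 2 and 3. The strains share their 2 control arrays, so these values are not independent of each other. In all 3 strains 20 members were called higher and 5 lower (35.2% and 36% of all genes). For 21 members the 6 evolved arrays all lay above both arrays labelled parental and for 6 they all lay below (38.2% and 38.9% of all genes).

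A further test compared the evolved strains with each other. The arrays labelled parental enter none of its differences, but they share in the estimate of spread. It called 26 of 34 members, where 68.9% of all genes were called, and the distance between the highest and lowest strain mean had a median of 0.23 (log2), beside 0.24 for all genes. None of the 34 differed by 2-fold between evolved strains, and the widest distance was 0.54, in TEF4. Of the 26 calls, 17 held under every setting tried. For 28 of the 34 the mean difference from parental, of either sign, exceeded the distance between strains, as it did for 73.3% of all genes.

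Strain 2 had the highest mean for 23 of the 34 members and strain 1 the lowest for 21. Over all genes tested strain 2 was highest for 28.3% and strain 1 lowest for 45.4%. Against strain 1, strain 2 was higher in 20 members and lower in 3 (29.8% and 22.9% of all genes). The 3 became 5 with arrays centred on the median of tested genes, and 1 without strain 1 replicate 2 or without strain 2 replicate 2. Strain 3 was higher than strain 1 in 16 and lower in 6 (33.1% and 24.4%). The 16 became 10 with arrays centred and 10 without strain 1 replicate 1. Strain 3 was lower than strain 2 in 14 members and higher in none (14.5% and 17.5%). The count of 14 was between 4 and 6 when any 1 array of strain 2 or strain 3 was left out, while calls over all genes fell as well, to between 760 and 825, against 1744 with every array. For genes called neither way the p-value does not show that the strains are alike.

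The 4 members with the strongest test among strains were TEF4, YEF3, PAB1 and EFT2. TEF4 in strain 2 stood above strain 1 by 0.54 ± 0.04 and above strain 3, where the difference was -0.46 ± 0.04 (strain 3 minus strain 2). YEF3 in strain 2 stood above strain 1 by 0.36 ± 0.03, and the difference of strain 3 minus strain 2 was -0.24 ± 0.03. PAB1 read 11.83 and 11.81 (strain 1), 12.20 and 12.22 (strain 2) and 12.21 and 12.12 (strain 3). Strain 1 was therefore the low strain, by 0.39 ± 0.04 against strain 2 and 0.35 ± 0.04 against strain 3. EFT2 had the same order, at 0.36 ± 0.04 and 0.28 ± 0.04. Adjusted p-values of the test among evolved strains were 0.000284, 0.000634, 0.000722 and 0.000762 for these 4 genes with limma.

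Other members had their own order of strains. The eIF2B gene GCN3 was high in strain 2, at 8.01 and 8.10, against 7.69 and 7.76 in strain 1, 7.69 and 7.65 in strain 3, and 7.95 and 7.97 in the arrays labelled parental. All 5 eIF2B genes were called higher in strain 2 than in strain 1 (29.8% of all genes), by 0.13 to 0.37. For GCN3, GCD2 and GCD6 the call held under every alternative tried. With arrays centred on the median of tested genes GCD7 differed by 0.06 (adjusted p = 0.242) and GCD1 by 0.10 (adjusted p = 0.0897). GCD1 was also lost under quantile normalization (adjusted p = 0.126), and both were lost without single arrays of strain 1 or strain 2. TIF11 and ANB1 were lowest in strain 3.

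**Figure D4:**
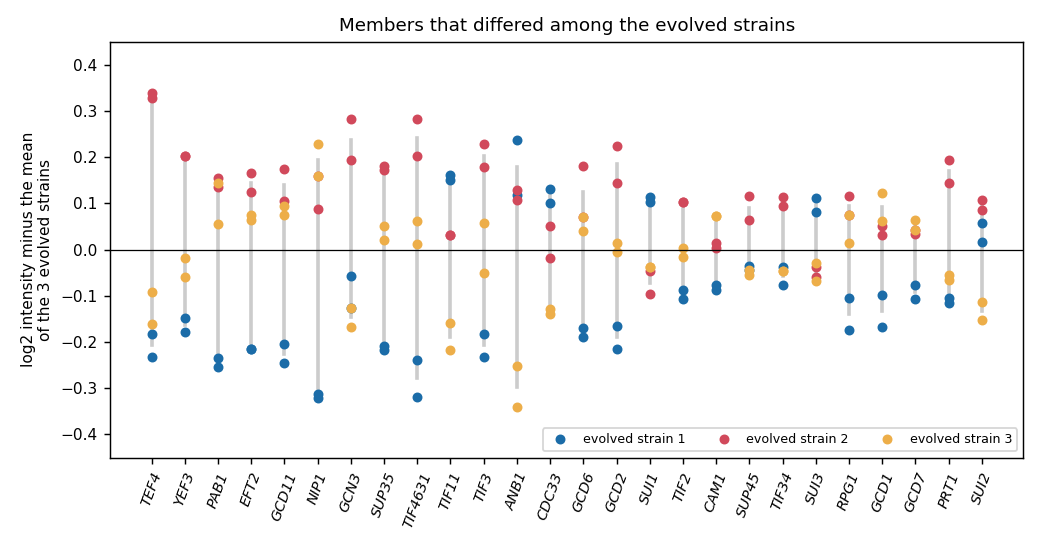
Log2 intensity of each evolved array minus the mean of the 3 evolved strains, for the 26 members that differed among the evolved strains, ordered by the strength of the test; dots are arrays and grey bars join the lowest and highest strain mean. Strain 2 has the highest mean for TEF4, YEF3, PAB1 and EFT2, and strain 3 is at the bottom for TIF11 and ANB1. Strain 3 lies close to strain 2 for PAB1 (means 12.17 and 12.21) and EFT2 (12.90 and 12.98), and strain 1 is low.

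Other genes of translation went both ways. Of 39 genes in 4 lists, 19 rose, 17 fell and 3 were not called in the mean of the evolved strains, with a median difference of 0.06. These shares lie near those of all genes (43.3% higher and 43.4% lower). With strain as a random block the counts were 10 higher and 11 lower (28.2% and 28.6% of all genes). Among genes that control initiation, 4 of 8 rose and 3 fell, or 3 and 2 with strain as a random block. GCN1, which activates the kinase Gcn2 on stalled ribosomes, rose by 1.44 ± 0.03 (2.72-fold), and its partner GCN20 by 0.91 ± 0.05. CDC123, an assembly factor for eIF2, fell by -0.81 ± 0.07.

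Among other factors and paralogues 6 of 11 rose and 4 fell (43.3% and 43.4% of all genes). With strain as a random block 4 rose and 3 fell (28.2% and 28.6%). DED1, an RNA helicase that resolves structure in long leaders and works with eIF4F, read 8.48 and 8.38 (strain 1), 9.09 and 9.17 (strain 2) and 9.13 and 8.99 (strain 3), against 10.89 and 10.93 in the arrays labelled parental. It fell by -2.04 ± 0.05 (4.1-fold, adjusted p = 4.72e-08 with limma), while TIF2, the eIF4A helicase gene, rose. STM1, which binds ribosomes and preserves them in starvation, read 13.18 to 13.37 on the evolved arrays and 11.42 and 11.50 on the arrays labelled parental, a rise of 1.79 ± 0.03 (3.47-fold).

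Among enzymes that modify factors, 8 of 17 rose and 8 fell (43.3% and 43.4% of all genes). With strain as a random block 3 rose and 5 fell (28.2% and 28.6%). LIA1, the hydroxylase that completes hypusine on eIF5A, rose by 1.52 ± 0.06 (2.87-fold), while DYS1, the synthase of the step before it, differed by -0.30 ± 0.04, with its call lost with strain as a random block (adjusted p = 0.12). JJJ3, needed for the diphthamide residue of eEF2, read 5.32 to 5.84 on the evolved arrays and 8.63 and 8.36 on the arrays labelled parental, and fell by -2.87 ± 0.08 (7.31-fold). MTQ2, which methylates eRF1, fell by -1.30 ± 0.03 (2.45-fold), whereas the eRF1 gene SUP45 rose. Of 3 ribosome rescue genes, HBS1 fell by -0.52 ± 0.03. DOM34 differed by 0.27 ± 0.03 and SKI7 by -0.29 ± 0.04, and these 2 calls were lost with strain as a random block (adjusted p = 0.0642 and 0.0879).

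**Figure D5:**
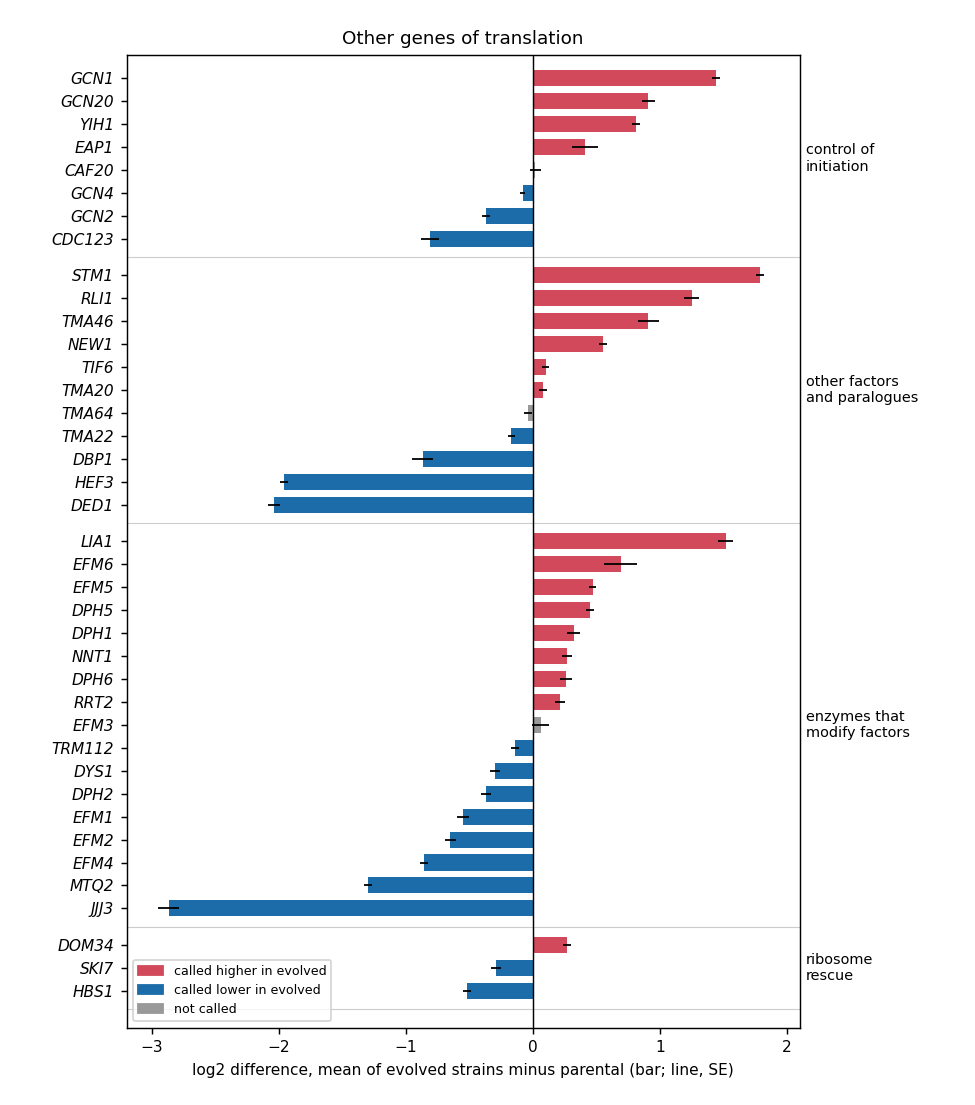
Log2 difference between the averaged evolved strains and parental for 39 other genes of translation in 4 lists; bars are differences, lines are standard errors, and colour gives the call. STM1, LIA1 and GCN1 are the highest bars and JJJ3, DED1 and HEF3 the lowest; EFM7 is shown under its current symbol NNT1.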

How the data were processed

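The deposited intensity values, 1 per probe set and array, were made by the authors with RMA (background correction, normalization between arrays, summary per probe set), per the submitters' processing notes; no version is given in the sources used here. They are on a linear scale, and log2 was taken. RMA's normalization fixes the overall distribution, so differences are relative to other genes. Of 10928 probe sets, 5498 had 1 S. cerevisiae gene in the platform annotation, giving 5449 genes; 12 symbols were updated from the R64 annotation, used for names only. One limma 3.58.1 model in R 4.3.3, with a coefficient per group, was fitted to all genes on all 8 arrays (statmod 1.5.0 for the robust and block fits), and p-values were adjusted by Benjamini-Hochberg over all genes. Only 4 residual degrees of freedom remained, so the number of arrays limits the precision. The fit was tested on simulated data.

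Members and lists were chosen with earlier results of these data known. Every measured member is named; array values are printed for members of at least 2-fold, paralogues, release factors and the 4 strongest differences among strains, and for some others chosen after their values were seen. At most 3 genes per further list follow by size; DYS1 was added after its values were seen. Promoter motifs were planned but not searched, since no sequence table was used here.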

Additional observations from a re-analysis of the deposited data

Results flagged for a closer look

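The difference from the arrays labelled parental differed between the evolved strains for 26 of 34 members, by the limma test among evolved strains. That test called 68.9% of all genes. The median distance between the highest and lowest strain mean was 0.23 (log2) over the members and 0.24 over all genes. The distance between the highest and lowest strain mean (log2) was 0.54 in TEF4, 0.52 in TIF4631, 0.51 in NIP1, 0.48 in ANB1 and 0.41 in TIF3. It was 0.39 in PAB1 and SUP35, 0.38 in GCN3, 0.37 in GCD11 and GCD2, 0.36 in YEF3 and EFT2, 0.34 in TIF11 and 0.30 in GCD6. It was 0.28 in PRT1, 0.25 in CDC33, 0.23 in RPG1 and SUI2, 0.22 in GCD1, 0.20 in TIF2 and 0.18 in SUI1. The smallest were 0.16 in CAM1 and TIF34, and 0.14 in SUP45, SUI3 and GCD7. Under at least 1 alternative setting 9 of these 26 calls were lost.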

How the results depend on the processing

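No reported result reversed under the 15 alternatives tried. In the mean contrast, strain as a random block lowered the count of falling members to 3 (10 in the fit without it). It lowered the count of all called genes to 3096 (4725). That fit gives all evolved arrays a single coefficient, so differences between strains enter its error. In the fit without the block they do not. The share of this in the lower counts was not tested, and the degrees of freedom of the block fit still count arrays, not strains. Arrays centred on the median of tested genes gave 5 members lower in strain 2 than strain 1 (3 otherwise) and 10 higher in strain 3 than strain 1 (16 otherwise). This centring gave a median difference over all genes of -0.06, against -0.01 without it.

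Leaving out each array in turn gave 22 to 23 members higher and 8 to 10 lower in the mean contrast. For strain 2 minus strain 1 it gave 1 to 3 members lower, for strain 3 minus strain 1 10 to 16 higher, and for strain 3 minus strain 2 4 to 15 lower, with 760 to 2559 genes called in all (14 members and 1744 genes with every array). The lowest of these came without strain 1 replicate 2 or strain 2 replicate 2 (1 lower), without strain 1 replicate 1 (10 higher) and without strain 3 replicate 2 (4 lower). The lone array left in a group is then assumed to vary like the other groups. Array numbers did not pair the samples: deviations of same-numbered arrays correlated at -0.12 to 0.03 over 6 pairs of groups. With the replicate number as a block (replicate block), 8 member calls were lost, 1 of them against parental. The counts under that pairing were 23 members higher and 10 lower in the mean contrast.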
